A study of Mus musculus with 18 samples.

Results

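The 10 genes described here belong to the cyclic AMP (cAMP) pathway as T cells use it, and they were followed in CD3+ T cells sorted from B16-OVA tumors. They were chosen by their place in that pathway with their levels in the 4 groups already known, and Adcy7 and Prkacb in addition stood out between genotypes under anti-PD-L1. All 10 were found by symbol among the 37236 genes of the table and all 10 passed the filter of a mean of at least 10 normalized counts, which 11992 genes passed. Since measured values guided the choice, the members' differences are given as a description, with standard errors and without p-values. Counts of members past a threshold stand beside the share of all genes past it, and nothing is read from them in any comparison. The lists of other pathway genes were also drawn up with earlier results known, so their counts describe the lists; each p-value printed is that of a single gene, adjusted over all genes tested.

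Young adult C57BL/6 mice, either wild-type (Nr2f6+/+) or with a whole-body deletion of Nr2f6 (Nr2f6-/-), carried subcutaneous B16-OVA tumors from 500000 injected cells. The mutant line had been back-crossed to C57BL/6. B16-OVA is a mouse melanoma line that expresses ovalbumin. The mice received 0.5 mg of anti-PD-L1 (clone 10F.9G2), which blocks the ligand of the inhibitory receptor PD-1, or of the isotype control IgG2b (clone LTF-2), in repeated injections from day 3, and tumors were taken at day 14. The groups were wild-type IgG2b (n = 3), Nr2f6-/- IgG2b (n = 3), wild-type anti-PD-L1 (n = 6) and Nr2f6-/- anti-PD-L1 (n = 6). CD4 and CD8 T cells were enriched on beads, combined and sorted for CD3. All cells of the mutant host lack Nr2f6, so an effect inside the T cell cannot be told apart from an effect of the host. The labels do not state how many mice stand behind a library, so spread between samples may in part be technical.

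Each library held 12473391 to 18609482 reads (median 16554699). By the library numbers in the titles there are 2 sets. The first, 28 to 39, has replicates 1 to 3 of each group; the second, 43 to 48, has replicates 4 to 6 and no IgG2b sample. Nr2f6 had no read in any of the 9 Nr2f6-/- libraries, where a count of 0 allows up to 3 reads, and 20.2 to 201 normalized counts in the 9 wild-type libraries. The 8 T cell markers were detected in every group, with a summed level of 52074 to 90954 normalized counts. Markers of other cells were also present. The summed level of 12 macrophage and monocyte genes was 13478 to 16969 in wild-type IgG2b, 7750 to 11380 in Nr2f6-/- IgG2b, 1449 to 6073 in wild-type anti-PD-L1 and 924 to 2233 in Nr2f6-/- anti-PD-L1. Of their defining genes, Csf1r was at 204 to 488 and Adgre1 at 365 to 669 in wild-type IgG2b. Csf1r was at 13.6 to 270 in wild-type anti-PD-L1 and at 0 to 155 in Nr2f6-/- anti-PD-L1. Adgre1 was at 0 to 247 and 0 to 93.0 in the same groups. The 5 melanocyte genes summed to 736 to 7107 over all libraries. Tyr was at 24.7 or below in every library, and at 0 in every Nr2f6-/- anti-PD-L1 library. In that group Mlana was at 0.900 to 313, Pmel at 119 to 1891, Tyrp1 at 172 to 1512 and Dct at 253 to 1616. The 4 B cell genes summed to 0 to 192, with Cd79a at 0 throughout, and the 4 regulatory T cell genes to 4302 to 8322. In sorted bulk samples, fewer cells of a type and less RNA per cell cannot be told apart.

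cAMP is a second messenger that restrains T cell activation. Receptors such as the prostaglandin E2 receptor EP4 (Ptger4) act through the stimulatory G protein (Gnas) on adenylyl cyclases (here Adcy7), which make cAMP. cAMP releases the catalytic subunits of protein kinase A (Prkaca, Prkacb), which phosphorylate CREB family factors and dampen T cell receptor signaling. Phosphodiesterases (Pde3b, Pde4b, Pde4d) break cAMP down, arrestins (Arrb1) uncouple receptors and can bring phosphodiesterases to them, and Crem encodes activators and repressors that bind cAMP response elements.

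Promoter sequences are shown for the members whose anti-PD-L1 groups did not overlap, Adcy7 and Prkacb, and for Rgs2, the pathway gene outside the members with the lowest p between genotypes under anti-PD-L1. The RefSeq table (GRCm38.p6) held 18 promoter windows, each from 250 bases before to 50 bases after a start, for 7 members; Pde3b, Arrb1 and Crem had no entry. Each run below gives the 250 bases before 1 annotated start, 5′ to 3′ on the gene's strand. Capitals mark TGACG, the half-site of the cAMP response element, and AGGTCA, a half-site that nuclear receptors bind, on either strand. Only starts with TGACG in those 250 bases are shown, so its presence in each run was set by that choice. Adcy7 and Prkacb had 3 windows each, and their windows not shown carried neither half-site. The Adcy7 window lies on the + strand at chr8:88282742-88282991, the Prkacb window on the - strand at chr3:146812947-146813196 and the Rgs2 window on the - strand at chr1:144004150-144004399.
Adcy7: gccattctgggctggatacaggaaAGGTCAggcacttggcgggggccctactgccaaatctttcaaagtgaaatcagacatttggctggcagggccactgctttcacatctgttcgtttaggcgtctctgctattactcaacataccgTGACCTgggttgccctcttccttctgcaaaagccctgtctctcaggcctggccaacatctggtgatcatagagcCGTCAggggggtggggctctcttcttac
Prkacb: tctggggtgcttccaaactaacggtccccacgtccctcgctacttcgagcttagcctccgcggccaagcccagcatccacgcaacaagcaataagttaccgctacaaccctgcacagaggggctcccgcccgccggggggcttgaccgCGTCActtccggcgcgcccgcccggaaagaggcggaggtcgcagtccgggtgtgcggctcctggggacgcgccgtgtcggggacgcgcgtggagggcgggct
Rgs2: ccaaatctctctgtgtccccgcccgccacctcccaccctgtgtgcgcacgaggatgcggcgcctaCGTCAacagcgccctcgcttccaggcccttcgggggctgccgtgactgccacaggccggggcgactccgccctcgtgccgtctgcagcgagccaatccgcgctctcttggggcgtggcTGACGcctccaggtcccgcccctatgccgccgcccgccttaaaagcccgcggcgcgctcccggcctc
The Adcy7 start shown carried AGGTCA on each strand and TGACG on the opposite strand, read as CGTCA. The Prkacb start shown carried TGACG once and the Rgs2 start carried it once on each strand. No motif overlapped another in these runs. TGACG was found in 7 of the 18 members' windows (38.9%) and in 20.8% of all 32851 windows. Of the 7 windows, 2 are overlapping windows of Gnas that hold the same site. By gene, TGACG was found in 5 of the 7 members and in 6228 of all 27025 genes. The members had 18 windows for 7 genes, against 32851 for 27025, so the shares are not like for like. AGGTCA was found in 2 of the 18 (11.1%) and in 16.3% of all windows. The full element TGACGTCA was in 1.79% of all windows and in none of the members' 18. These are matches of letters within the window and were not tested for binding.

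The first comparison asked how the pathway differed between genotypes under PD-L1 blockade. Adcy7 and Prkacb were higher in Nr2f6-/- than in wild-type T cells, and Arrb1 was lower.

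Adcy7 encodes an adenylyl cyclase of immune cells. Its normalized counts in wild-type anti-PD-L1 were 1589 at the lowest, 1935 at the median and 2336 at the highest, and in Nr2f6-/- anti-PD-L1 they were 2435, 3004 and 3517. The groups did not overlap, in either library set. The mean was 1.57-fold higher in Nr2f6-/- (2972 ± 364 against 1899 ± 282, SD, n = 6), a log2 difference of 0.65 (SE 0.16).

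Prkacb encodes the beta catalytic subunit of protein kinase A. It ranged from 2014 to 3771 normalized counts (median 2945) in wild-type and from 3797 to 6094 (median 4351) in Nr2f6-/- mice given anti-PD-L1. The groups were next to each other without overlapping. The log2 difference was 0.65 (SE 0.18), a 1.56-fold higher mean. Prkaca, the alpha catalytic subunit, lay at 838 to 2573 in wild-type and 1175 to 1909 in Nr2f6-/- libraries, with a log2 difference of -0.07 (SE 0.22). Only Prkacb of these catalytic subunits had groups that did not overlap; the difference between the subunits was not tested.

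Arrb1 encodes beta-arrestin 1. Its normalized counts were 529, 960 and 1841 (lowest, median, highest) in wild-type anti-PD-L1 and 53.9, 244 and 540 in Nr2f6-/- anti-PD-L1. The highest Nr2f6-/- library lay just above the lowest wild-type library, from the other library set. Within the first set the values were 53.9 to 229 in Nr2f6-/- against 529 to 741 in wild-type, and within the second set 260 to 540 against 1179 to 1841, so that the groups were apart within each set. The level of Arrb1 also differed between sets within a genotype, with means of 644 and 1544 in wild-type and 132 and 436 in Nr2f6-/- libraries. The wild-type mean was 3.85-fold that of Nr2f6-/-, with a log2 difference of -2.19 (SE 0.46).

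The pooled ranges of the other members overlapped between genotypes under anti-PD-L1. Gnas, the stimulatory G protein subunit, lay at 6504 to 8280 in wild-type and 7523 to 11445 in Nr2f6-/- libraries. Within each library set its groups were apart, with 7265 to 8280 against 9616 to 10605 in the first and 6504 to 7177 against 7523 to 11445 in the second. As for Arrb1, the share of all genes apart within a set was not counted, so nothing is read from this. It had a log2 difference of 0.35 (SE 0.14). Gnas overlaps an antisense transcript, and the strand setting of the counting is not given in the sources used here, so its reads are uncertain. Ptger4 lay at 828 to 2045 and 924 to 1930, and Pde4d at 54.0 to 416 and 110 to 490. Ptger4 differed by 0.18 (SE 0.23) on the log2 scale and Crem by -0.20 (SE 0.22). Pde3b differed by -0.46 (SE 0.27), Pde4b by 0.49 (SE 0.41) and Pde4d by 0.36 (SE 0.51).

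**Figure D1:**
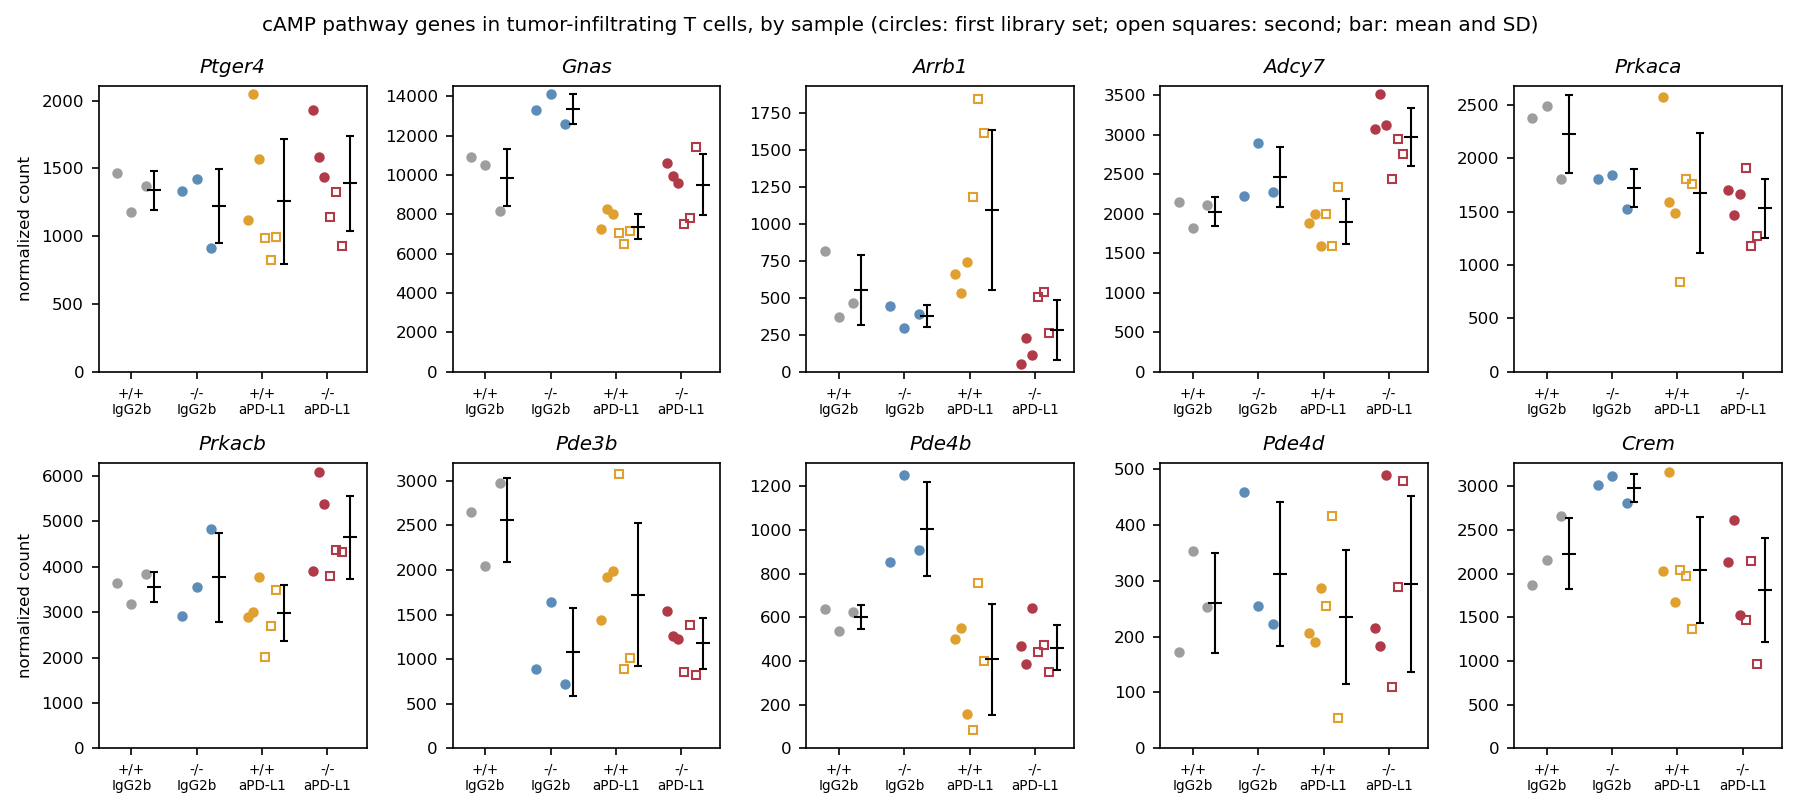
Normalized counts of the 10 members (y axis, linear, from 0) in each of the 4 groups (x axis; +/+ wild-type, -/- Nr2f6-/-, aPD-L1 anti-PD-L1); each point is 1 library, filled circles are the first library set, open squares the second, and bars give the mean ± SD (n = 3 for IgG2b, n = 6 for anti-PD-L1). Adcy7 in the 6 Nr2f6-/- anti-PD-L1 libraries (2435 to 3517) lies above the 6 wild-type anti-PD-L1 libraries (1589 to 2336), and Arrb1 lies at 53.9 to 540 against 529 to 1841.

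Among the 10 members, 1 (Arrb1, lower) passed an adjusted p under 0.05 in limma over all 11992 genes; the share of all genes doing so was 0.175%. At an unadjusted p under 0.05 there were 4 members, 3 higher and 1 lower, where 9.73% of all genes passed. Members whose groups did not overlap were 2, both higher, against 0.592% of all genes. The members were chosen on such values. By other tools the count of members past an adjusted p under 0.05 was 0 (edgeR) and 3 (DESeq2), and the call of Arrb1 was lost when any of 6 anti-PD-L1 libraries was left out (wild-type replicates 4, 5 and 6, Nr2f6-/- replicates 1, 2 and 3). In the same comparison the macrophage and monocyte genes were lower in 9 of 12 (median log2 difference -0.91, 4 at an unadjusted p under 0.05). The melanocyte genes were lower in 4 of 4 tested (median -1.22), and T cell genes were higher in 7 of 8 (median 0.27). The lower T cell gene was Cd4, with means of 4496 in wild-type and 3905 in Nr2f6-/- libraries. Means were 9337 and 13161 for Cd8a, and 13419 and 20526 for Cd8b1. The ranges of each of these genes overlapped between the groups. A shift between CD4 and CD8 cells cannot be told apart from expression per cell. The part of the marker genes in the members' differences was not tested. Adcy7 and Prkaca lie on chromosome 8, as Nr2f6 does, at 16.9 and 12.6 Mb from it. Of the 213 genes tested within 20 Mb of Nr2f6, 2 were called, both lower (0.939%, against 0.175% of all genes). At an unadjusted p under 0.05 in limma, 10 of them were higher and 26 lower (16.9%, against 9.73% of all genes). The part of a gene's position near Nr2f6 was not tested.

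The second comparison asked the same of control-treated mice, 3 against 3, all in the first library set. Pde3b was lower in Nr2f6-/- T cells and Gnas, Crem, Pde4b and Adcy7 were higher, in the sense that their groups did not overlap. That was 5 of 10 members, where 14.2% of all genes had groups that did not overlap.

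Pde3b, a phosphodiesterase that degrades cAMP and is itself inhibited by cyclic GMP, had 2648, 2045 and 2977 normalized counts in wild-type IgG2b and 887, 1635 and 716 in Nr2f6-/- IgG2b. Each wild-type library was above each Nr2f6-/- library. The wild-type mean was 2.37-fold higher, a log2 difference of -1.32 (SE 0.38) for Nr2f6-/- against wild-type.

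Gnas was at 10893, 10515 and 8190 in wild-type and at 13309, 14139 and 12587 in Nr2f6-/- libraries, a log2 difference of 0.45 (SE 0.19). Pde4b, a phosphodiesterase linked to T cell receptor signaling, was at 640, 538 and 623 against 853, 1251 and 907, a log2 difference of 0.72 (SE 0.57). Crem was at 1869, 2157 and 2665 against 3020, 3118 and 2805, with a log2 difference of 0.43 (SE 0.31).

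Adcy7 was at 2149, 1819 and 2112 in wild-type and 2222, 2898 and 2271 in Nr2f6-/- IgG2b libraries, with a log2 difference of 0.27 (SE 0.23). The gap between the groups was smaller than the SD of either. Prkacb (3641, 3182 and 3837 against 2910, 3546 and 4841) and Arrb1 (816, 368 and 466 against 446, 299 and 389) overlapped, with log2 differences of 0.06 (SE 0.25) and -0.48 (SE 0.65). Prkaca (-0.36, SE 0.31), Pde4d (0.24, SE 0.72) and Ptger4 (-0.15, SE 0.33) overlapped as well.

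No member and no gene passed an adjusted p under 0.05 in limma in this comparison (0% of 11992 genes). At an unadjusted p under 0.05, limma gave 2 members and 641 genes, or 5.35% of all genes. edgeR called 0 genes and DESeq2 88, with no member among them. The macrophage and monocyte genes were lower in 11 of 12 (median log2 difference -0.76) in the same libraries, the melanocyte genes in 4 of 4 tested (median -1.26, 3 without overlap) and the genes of naive or stem-like T cells in 5 of 6 (median -0.53). Their part in the members' differences was not tested.

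**Figure D2:**
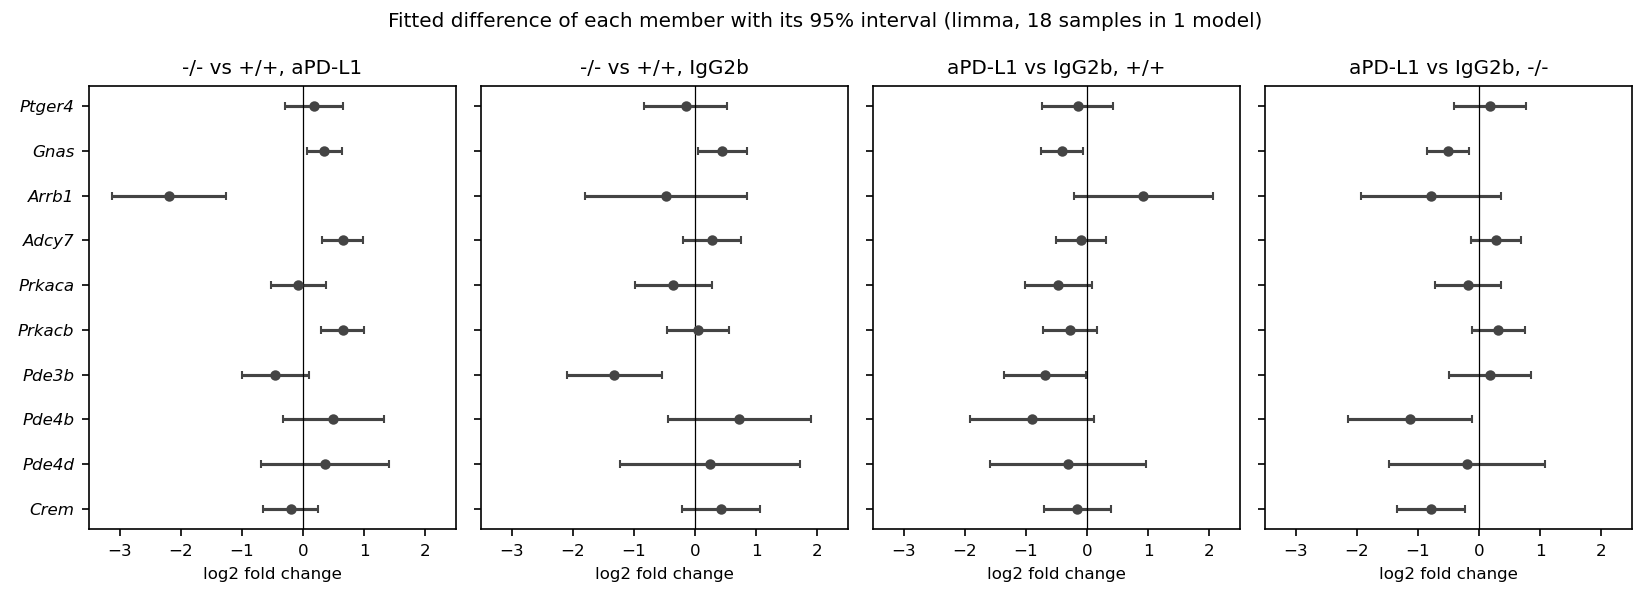
Log2 fold change of each member (x axis) with its 95% interval in 4 comparisons (panels), from 1 limma model of 18 samples; points are the fitted differences of log2(normalized count + 1). The members were chosen with these values known, so the intervals describe the fit and test nothing. Under anti-PD-L1 (left panel) Arrb1 lies at -2.19 and Adcy7 and Prkacb at 0.65 each, while under IgG2b Pde3b lies at -1.32.

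The third question was what PD-L1 blockade changed within a genotype. These comparisons share their anti-PD-L1 and IgG2b samples with those above, and IgG2b libraries exist in the first library set only. In wild-type mice, 9 of 10 members were lower after anti-PD-L1 (median log2 difference -0.30, against -0.10 over all genes tested), and all members overlapped between the groups. Gnas differed by -0.41 (SE 0.17) and Pde3b by -0.68 (SE 0.33). At an unadjusted p under 0.05 there were 2 members, where 7.24% of all genes passed. No member passed an adjusted p under 0.05 in limma, edgeR or DESeq2; by limma, 0.242% of all genes did. Groups without overlap were found for 4.54% of all genes and for 0 members. Arrb1 was the member with a positive difference (0.92, SE 0.56), which was 0.30 in the first library set alone and 0.14 with the library set as a covariate.

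In Nr2f6-/- mice, Gnas, Crem and Pde4b were lower after anti-PD-L1 in every library, 3 of 10 members where 5.12% of all genes had groups that did not overlap. Gnas went from 12587 to 14139 down to 7523 to 11445, a log2 difference of -0.51 (SE 0.17). Pde4b went from 853 to 1251 down to 349 to 645 (-1.13, SE 0.50), and Crem from 2805 to 3118 down to 966 to 2613 (-0.79, SE 0.27). At an unadjusted p under 0.05 there were 3 members, where 9.7% of all genes passed; none passed an adjusted p under 0.05 in limma, edgeR or DESeq2, and 0.325% of all genes did in limma. Adcy7 and Prkacb differed by 0.27 (SE 0.20) and 0.31 (SE 0.21). Arrb1 differed by -0.79 (SE 0.56), and by -1.73 in the first library set alone.

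The difference between the genotypes in the effect of anti-PD-L1 was fitted as an interaction. It was -1.71 (SE 0.79) on the log2 scale for Arrb1, 0.86 (SE 0.46) for Pde3b, 0.59 (SE 0.30) for Prkacb and 0.38 (SE 0.28) for Adcy7. At an unadjusted p under 0.05 there was 1 member, where 4.97% of all genes passed. No member and no gene (0%) passed an adjusted p under 0.05 in limma; edgeR called 0 genes and DESeq2 76, with no member among them.

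Nr2f6-/- mice with anti-PD-L1 were also set against wild-type mice with IgG2b. Adcy7 was higher (2435 to 3517 against 1819 to 2149; log2 difference 0.55, SE 0.20) and Pde3b lower (820 to 1538 against 2045 to 2977; -1.14, SE 0.33), both without overlap of the groups. That was 2 of 10 members, against 6.17% of all genes. Arrb1 differed by -1.27 (SE 0.56), by -2.21 in the first library set alone and by -2.05 with the library set as a covariate. At an unadjusted p under 0.05 there were 3 members, against 9.04% of all genes. No member passed an adjusted p under 0.05 in limma, edgeR or DESeq2, and 0.617% of all genes did in limma. Of 30 alternatives, only 1 took Arrb1 past it, the fit with the library set as a covariate, and nothing is read from that. In the same libraries all 12 macrophage and monocyte genes were lower (median log2 difference -3.64, 4 past an adjusted p under 0.05), as were all 6 genes of naive or stem-like T cells (median -1.32, 1 past it), and 7 of 8 T cell genes were higher (median 0.60). Their part was not tested.

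The wider pathway was taken from 10 lists of 100 symbols, of which 98 were in the table and 72 were tested, 62 of them outside the members. Between genotypes under anti-PD-L1, 42 of the 62 were higher and 20 lower (median log2 difference 0.19, against -0.005 over all genes tested). Of the 62, 1 was called higher (Rgs2) and 0 lower, where 0.175% of all genes were called.

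Rgs2, a regulator of G protein signaling whose transcription responds to CREB, was at 2219 at the lowest, 2751 at the median and 3232 at the highest in wild-type anti-PD-L1, and at 3566, 11960 and 13072 in Nr2f6-/- anti-PD-L1. The groups did not overlap. Its mean was 3.68-fold higher in Nr2f6-/- (log2 difference 1.76, SE 0.23, adjusted p = 8.85e-05 in limma). The adjusted p stayed under 0.05 in 30 of 31 alternatives and missed it in the second library set alone (log2 difference 1.28, adjusted p = 0.750), where replicates 5 and 6 of Nr2f6-/- lay at 6876 and 3566. In that set alone 0 genes were called. Of the 31 alternatives, 18 left out 1 library each, and all reuse the same libraries, so nothing is read from the tally. Dusp1, a phosphatase of MAP kinases, had a log2 difference of 0.82 (SE 0.18, adjusted p = 0.0540 in limma, under 0.05 in 8 of 31 alternatives) and Sik1, a kinase that holds CREB coactivators in the cytoplasm, of 2.43 (SE 0.69, adjusted p = 0.188).

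At an unadjusted p under 0.05, which 9.73% of all genes had in this comparison, limma gave another 8 pathway genes outside the members. None of these 8 passed the adjusted threshold in limma. They were the CREB coactivators Crebbp (0.56, SE 0.22) and Ep300 (1.52, SE 0.68), the G protein subunits Gnai3 (0.36, SE 0.16), Gng2 (0.39, SE 0.15) and Gnb2 (-0.35, SE 0.16), the A-kinase anchoring proteins Akap1 (3.15, SE 1.18) and Akap7 (-2.97, SE 1.04), and the receptor partner Ramp1 (-1.11, SE 0.46), all as log2 differences. Without the wild-type library of Ep300 at 6.12 normalized counts, against 244 to 786 in the other 5, its difference was 0.57. Akap1 and Akap7 rest on low counts, with a highest library of 22.4 for Akap1 and of 286 for Akap7 in wild-type anti-PD-L1. None of the 8 tested phosphodiesterases, 3 of them members, had an unadjusted p under 0.05; 5 were higher and 3 lower.

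The CREB-responsive genes were compared between anti-PD-L1 and IgG2b. In wild-type mice all 8 were lower after anti-PD-L1 (median log2 difference -1.60, against -0.10 over all genes). Of these, 4 passed an adjusted p under 0.05 in limma, where 0.242% of all genes did. In Nr2f6-/- mice all 8 were lower as well (median -1.21, against -0.04), and 2 passed, where 0.325% of all genes did. The activity of CREB itself was not measured. The signs were the same under scaling to the same total and under quantile normalization.

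Rgs2 was at 9784, 8911 and 13258 normalized counts in wild-type IgG2b libraries, above all 6 wild-type anti-PD-L1 libraries given above (log2 difference -1.97, SE 0.28, adjusted p = 0.000387 in limma). In Nr2f6-/- mice it was at 16714, 16245 and 12432 under IgG2b, which overlapped with the anti-PD-L1 libraries (-0.72, SE 0.28, adjusted p = 0.342). The difference between these effects was 1.25 (SE 0.39), with an adjusted p of 0.974 in limma and 0.0476 in DESeq2.

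Nr4a1, an orphan nuclear receptor induced by T cell receptor and cAMP signals, fell from 3721 to 5735 under IgG2b to 851 to 1985 under anti-PD-L1 in wild-type mice (log2 difference -1.74, SE 0.32, adjusted p = 0.00927 in limma). In Nr2f6-/- mice it fell from 5549 to 7468 to 1095 to 3972 (-1.74, SE 0.32, adjusted p = 0.0104). No library overlapped between treatments in either genotype. In the first library set alone, where both treatments occur, the difference was -1.62 in wild-type and -1.08 in Nr2f6-/- mice, where the Nr2f6-/- anti-PD-L1 libraries were at 2588 to 3972 in the first set and 1095 to 1613 in the second.

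Dusp1 fell by 1.47 in wild-type (SE 0.22, adjusted p = 0.000774 in limma) and by 1.12 in Nr2f6-/- mice (SE 0.22, adjusted p = 0.0146) on the log2 scale. Fos, a component of the AP-1 factor, fell by 2.69 in wild-type mice (SE 0.52, adjusted p = 0.0130), from 782 to 1411 down to 70.3 to 273. In Nr2f6-/- mice its difference was -1.29 (SE 0.52, adjusted p = 0.385). Within the first library set, the wild-type differences of Rgs2, Dusp1, Nr4a1 and Fos had adjusted p-values of 0.000103, 0.00220, 0.00854 and 0.0492 in limma, while in Nr2f6-/- mice those of Dusp1 and Nr4a1 were both 0.118. With the library set as a covariate, the wild-type difference of Nr4a1 missed the threshold (adjusted p = 0.0551 in limma), and those of Rgs2 and Dusp1 (0.00352 each) and of Fos passed it.

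Vipr1, a receptor for vasoactive intestinal peptide that couples to the stimulatory G protein, was the fifth pathway gene called in wild-type mice, at 182.7, 94.8 and 109.5 normalized counts under IgG2b and 0 to 2.09 under anti-PD-L1 (adjusted p = 0.0482 in limma). It kept an adjusted p under 0.05 in 8 of 29 alternatives. In the same comparisons all 12 macrophage and monocyte genes were lower after anti-PD-L1, with a median log2 difference of -3.26 in wild-type and -3.68 in Nr2f6-/- mice. The 6 genes of naive or stem-like T cells were lower too, with medians of -1.09 and -0.70 (6 of 6 in each genotype). The part of either in the CREB-responsive genes was not tested.

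**Figure D3:**
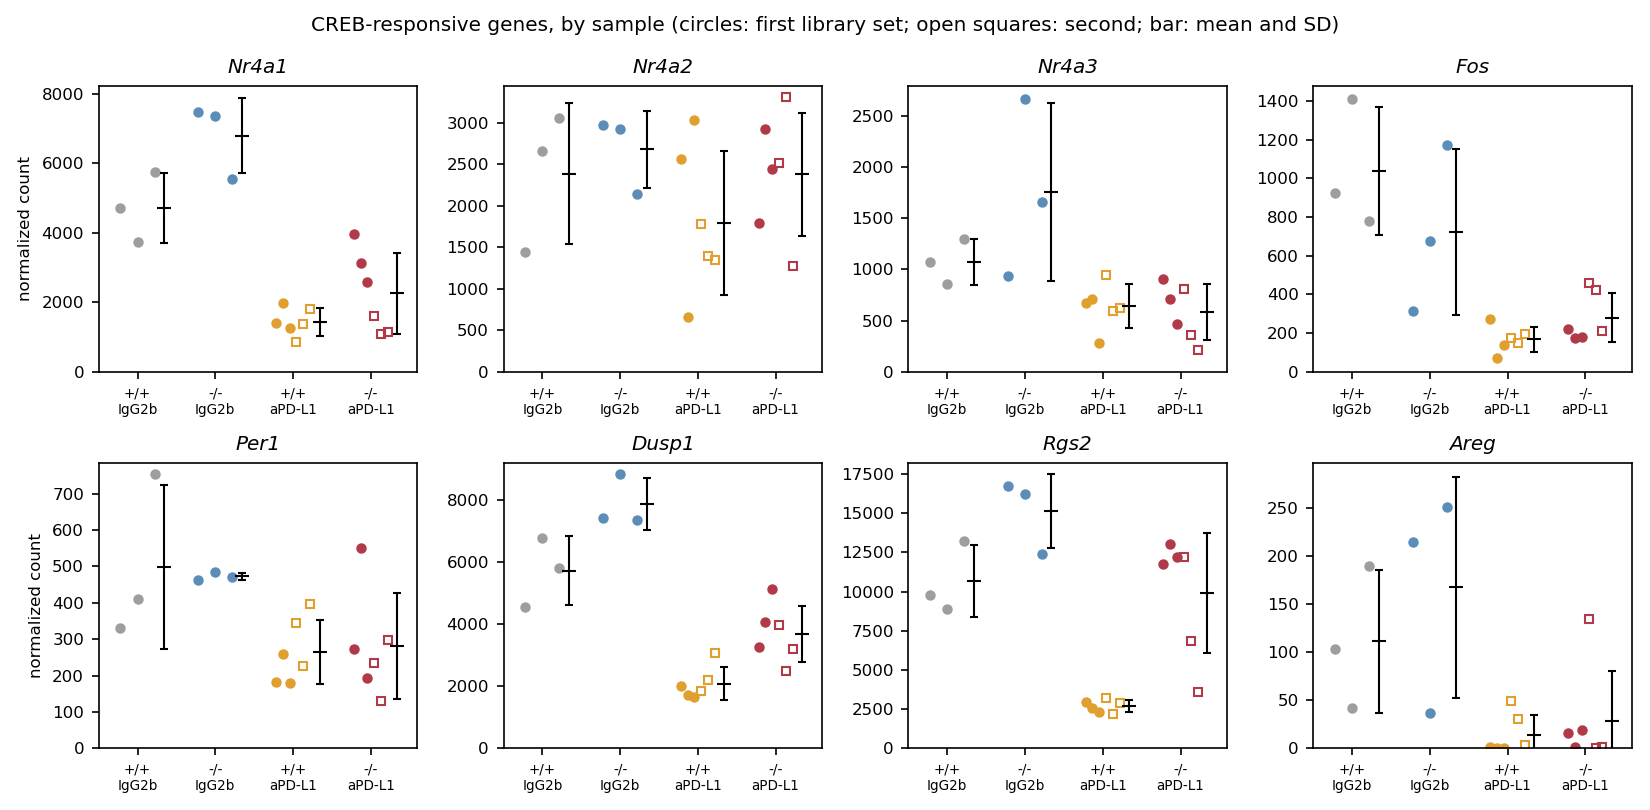
Normalized counts of the 8 CREB-responsive genes (y axis, linear, from 0) in the 4 groups (x axis, as for the members); each point is 1 library, circles for the first library set, open squares for the second, bars for the mean ± SD, which the axis cuts off at 0. Rgs2 lies at 2219 to 3232 in wild-type anti-PD-L1 and at 3566 or above in every other library, and Nr4a1 is at 3721 or above in all IgG2b libraries.

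Of the 8 tested phosphodiesterases, 3 of them members, 8 were lower after anti-PD-L1 in wild-type mice (median log2 difference -0.84). So were 45 of the 62 pathway genes outside the members and 6871 of all 11992 genes. Of the phosphodiesterases, 0 passed an adjusted p under 0.05 and 2 an unadjusted p under 0.05 in limma. The shares of all genes were 0.242% and 7.24%. Under quantile normalization 7 of the 8 were lower. In Nr2f6-/- mice 4 were higher and 4 lower. Of all 72 pathway genes, members included, 5 were called after anti-PD-L1 in wild-type and 2 in Nr2f6-/- mice, each of them lower. The shares of all genes called were 0.242% and 0.325%. In limma, 0 of the 72 were called between genotypes under IgG2b, 0 between Nr2f6-/- anti-PD-L1 and wild-type IgG2b and 0 in the interaction. The shares of all genes called were 0%, 0.617% and 0%. At an unadjusted p under 0.05 there were 8, 12 and 6 of the 72, where 5.35%, 9.04% and 4.97% of all genes passed. Of the 72, edgeR called 0 in each of these comparisons, and DESeq2 called 0, 1 and 1.

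**Figure D4:**
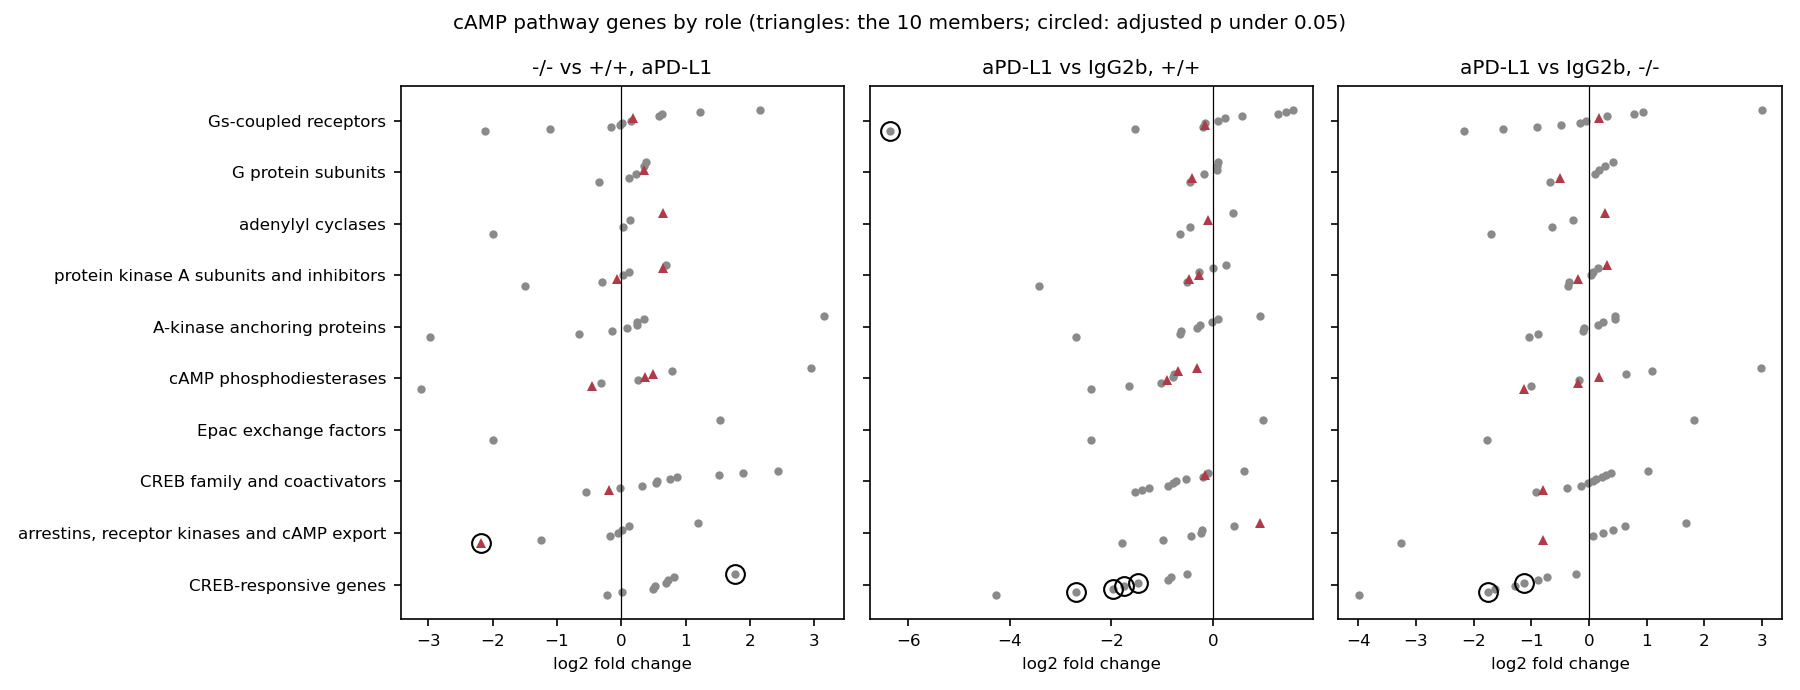
Log2 fold change (x axis) of the 72 tested pathway genes by list (y axis, genes of a list spread vertically for legibility) in 3 comparisons (panels); triangles are the 10 members, grey circles the other genes, and black rings mark an adjusted p under 0.05 in limma. Rgs2 (1.76) and Arrb1 (-2.19) are ringed in the left panel, and the ringed genes of the other panels all lie below 0.

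Across the 18 samples, the genes most like each member in level were ranked by Pearson's r of log2 values, which is raised by the group differences that samples share. Gnas was closest to Sh3glb1 (r = 0.89), Gnai3 (0.85) and Coq10b (0.84). Adcy7 was closest to Sema4a (0.87), Klrd1 (0.85) and Flt3l (0.78), and Crem to Tmem33 (0.88). Pde4b was closest to Ppp1r15a (0.85), Prkacb to Wdr95 (0.83), with Hdac1 and Nfatc1 next at 0.80, and Arrb1 to Inip (0.83). For Prkaca, Pde3b, Pde4d and Ptger4 the leading genes were Fadd (0.78), Gm13205 (0.80), Zfp945 (0.77) and Chmp2b (0.80). Among the members, Adcy7 and Prkacb went together (r = 0.69) and Adcy7 and Arrb1 went opposite ways (r = -0.69, n = 18); with group means subtracted, r was 0.26 and -0.20.

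Spread within groups differed between members. The coefficient of variation was 8.92 to 15.3% for Adcy7 and 5.82 to 16.3% for Gnas over the 4 groups, against 34.7 to 53.8% for Pde4d and 19.7 to 70.8% for Arrb1. The anti-PD-L1 groups pool 2 library sets, between which Arrb1 differed. Within the first and second set it was 16.6% and 21.8% for Arrb1 in wild-type, and 67.8% and 35.2% in Nr2f6-/- anti-PD-L1 libraries. Pde4d had as few as 63 reads in a wild-type anti-PD-L1 library, and its groups overlapped in each comparison.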

How the data were processed

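CD3+ tumor-infiltrating T cells of 18 samples in 4 groups, taken from the sample titles, were measured by QuantSeq, which reads the 3′ ends of mRNA. Per the labels and the methods of the study, the authors trimmed reads with Cutadapt and Trimmomatic, aligned them with STAR and Bowtie2 to mm10, counted with HTSeq and scaled with DESeq2; annotation and strand setting are not given in the sources used here. The deposited signal is the normalized count, reads divided by a size factor (0.823 to 1.22). Whole reads were recovered for 100% of values, within 0.01 reads.

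Genes with a mean of at least 10 were fitted as log2(normalized count + 1) with limma 3.58.1 (R 4.3.3; 4 group means, trend, two-sided, Benjamini-Hochberg over 11992 genes). A fold change on that scale understates low genes. edgeR 4.0.16 and DESeq2 1.42.0 on recovered reads were alternatives, beside pseudocount, filter, scaling, library set and leaving out each library. Members and lists were chosen with earlier results of these data known. Named were the members, pathway genes with an adjusted p under 0.05 in any comparison or an unadjusted p under 0.05 between genotypes under anti-PD-L1, Nr2f6, the genes most like each member, and markers of other cells. Replicate numbers did not pair the samples (21 same-numbered pairs, correlation of deviations -0.0292 to 0.0366).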

Additional observations from a re-analysis of the deposited data

Results flagged for a closer look

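Of 49 gene and group combinations of named genes with 6 samples, 2 had a library far from the other 5 on the log2 scale by Dixon's ratio; chance gives about 1 in 20. Ep300 had 6.12 normalized counts in wild-type anti-PD-L1 replicate 2 against 244 to 786 in the other 5 libraries (ratio 0.752). Vipr1 had 30.96 in Nr2f6-/- anti-PD-L1 replicate 4 against 0 to 1.21 in the other 5 (ratio 0.771). No member had such a library.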

How the results depend on the processing

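Numbers of genes called follow, with the reported count first. For genotype under anti-PD-L1, 21 genes became 9 without a filter, 4 with only the groups compared, 34 in the first and 0 in the second library set alone, 184 by DESeq2 and 1167 at an unadjusted p (9 to 27 when each library was left out), and 2 pathway genes became 1 without a filter, with only the groups compared or by edgeR, 0 in the second library set, 5 by DESeq2 and 15 at an unadjusted p (1 to 3). For genotype under IgG2b, 0 genes became 1 with a pseudocount of 10, 14 without a filter, 88 by DESeq2 and 641 at an unadjusted p (0 to 1), and 0 pathway genes became 8 at an unadjusted p (0 to 0). For anti-PD-L1 in wild-type, 29 genes became 60 with a pseudocount of 10, 19 with a mean of at least 50 or by edgeR, 15 with only the groups compared, 12 with the library set as a covariate, 94 by DESeq2 and 868 at an unadjusted p (6 to 31), and 5 pathway genes became 3 without a filter or with the library set, and 13 at an unadjusted p (2 to 5). For anti-PD-L1 in Nr2f6-/-, 39 genes became 17 without a filter, 19 with only the groups compared, 8 in the first library set, 230 by DESeq2 and 1163 at an unadjusted p (13 to 45), and 2 pathway genes became 0 without a filter, with only the groups compared or in the first library set, 4 by DESeq2 and 13 at an unadjusted p (0 to 2). For Nr2f6-/- anti-PD-L1 against wild-type IgG2b, 74 genes became 116 with a pseudocount of 10, 41 by edgeR, 177 by DESeq2 and 1084 at an unadjusted p (10 to 92), and 0 pathway genes became 1 with a pseudocount of 10, at the same total or by DESeq2, 2 with the library set and 12 at an unadjusted p (0 to 2). For the interaction, 0 genes became 5 without a filter, 76 by DESeq2 and 596 at an unadjusted p (0 to 0), and 0 pathway genes became 1 by DESeq2 and 6 at an unadjusted p (0 to 0). The cause of these changes was not tested.

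With the replicate number as a block, 29 genes became 12 and 5 pathway genes 3 for anti-PD-L1 in wild-type, and 2 pathway genes became 0 in Nr2f6-/-; only 5 of 18 samples correlated best with a sample of their own number, so the number does not pair them. Called pathway genes lost their call when single libraries were left out: Fos without any wild-type IgG2b library, Nr4a1 in wild-type without IgG2b replicates 1 or 3, Nr4a1 in Nr2f6-/- without IgG2b replicates 1 or 2, and Dusp1 in Nr2f6-/- without any IgG2b library of that genotype (adjusted p up to 0.249, 0.140, 0.0820 and 0.122 in limma). Vipr1 kept its call in 4 of 18 such omissions. The counts moved by over 1.5 times without wild-type replicates 4 or 5 or Nr2f6-/- replicates 1 or 2 (pathway genes also 3) for genotype under anti-PD-L1, without wild-type anti-PD-L1 replicate 5 for genotype under IgG2b, without any IgG2b library of the genotype for anti-PD-L1 within a genotype, and for Nr2f6-/- anti-PD-L1 against wild-type IgG2b without any wild-type IgG2b library or Nr2f6-/- replicates 2, 3 or 5 (pathway genes: Nr2f6-/- IgG2b replicate 1, wild-type anti-PD-L1 replicates 2 or 5, Nr2f6-/- anti-PD-L1 replicates 1 or 4). Arrb1 between genotypes under anti-PD-L1 kept its call in 20 of 31 alternatives, with log2 differences of -2.51 to -1.79. These alternatives reuse the libraries whose values were known when the members were chosen, so nothing is read from that tally. No called value of a named gene changed sign. The median of all genes for anti-PD-L1 in wild-type was -0.10, -0.19 at the same total and -0.001 under quantile normalization. Precision rests on 3 or 6 libraries a group.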
